A study of Mus musculus with 18 samples.

Results

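Homozygous Nkx2-5 mutant mouse embryos were compared with heterozygous embryos, to describe what loss of the second allele adds to gene expression. The comparison took every array titled null, 3 on each of 2 array types, and every array titled het, replicates 3, 4 and 8 on each type, which makes 12 of the 18 arrays of the series. The array types hold different probe sets and are called a and b after the letter in the titles. The total RNA was that of the middle part, of 3, of whole embryos at embryonic day 9.5, a mixed tissue with heart, nerve, blood and gut. Embryos of both groups carry at least 1 mutated allele of Nkx2-5, which the labels also call Csx. The 6 wild-type arrays, replicates 1, 5 and 7 on each type, served to place the heterozygous level. The homozygous replicates are numbered 2 and 6 on both types, while the remaining arrays carry different numbers on the array types and are called 8a and 9b here. The labels do not state whether these 2 arrays share their RNA, how the allele was made, which strain carried it, whether RNA was pooled, or whether embryos were litter mates. The spread behind the p-values is therefore that of these samples, and it may be technical.

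Nkx2-5 is a homeodomain protein that binds DNA in the early heart field, where it acts with Gata and T-box factors on genes of chamber growth and contraction. Mouse embryos without it are known to stop at the looping heart stage and to die around midgestation, while heterozygous mice live and carry milder defects. Several gene groups below are known to answer to other signals, none of which was measured here. Cells short of oxygen stabilise the hypoxia-inducible factors, which bind a short core sequence and switch on genes of glucose uptake, vessel growth and collagen hydroxylation. Cells short of amino acids, or with stress in the endoplasmic reticulum, use the transcription factor Atf4 to switch on genes such as Asns and Ddit4.

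The arrays give an intensity for each probe set, that is, for several oligonucleotide probes read together, on a linear scale that can be negative after background subtraction. Before testing on the log2 scale, values below a floor were raised to it, 375.1 for type a and 523.1 for type b, so that a fold can be smaller than the ratio of the measured means. Probe sets with fewer than 3 arrays above that floor were not tested, which left 6935 probe sets and 3909 named genes. A fold against a group with all its arrays under the floor is a lower bound. A change is an adjusted p under 0.05 from limma over all 6935 probe sets. Since no probe set was annotated as Nkx2-5, the mutated gene's own level was not analysed here and the genotypes are as labelled.

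The promoters of 5 genes that rose and 1 that fell are printed first, because the genes recur below. They are examples that all hold the hypoxia core, which was searched in every changed gene with a known promoter. Of the genes that rose, Vldlr, Apoe, Tpi1, Eif4b and Ccdc130 held no core in any promoter. Each line gives the 250 bases before the start of the gene, 5′ to 3′ on the gene's own strand, from the RefSeq promoter table of build GRCm38.p6. Capitals mark ACGTG or GCGTG on either strand, so that the reverse strand reads CACGT or CACGC. Ddit4 lies at chr10:59951771-59952020 on the minus strand. Adm lies at chr7:110627407-110627656, P4ha1 at chr10:59323046-59323295, P4ha2 at chr11:54100674-54100923, Pgm1 at chr4:99929201-99929450 and Rrm2 at chr12:24708004-24708253, all on the plus strand.
Ddit4: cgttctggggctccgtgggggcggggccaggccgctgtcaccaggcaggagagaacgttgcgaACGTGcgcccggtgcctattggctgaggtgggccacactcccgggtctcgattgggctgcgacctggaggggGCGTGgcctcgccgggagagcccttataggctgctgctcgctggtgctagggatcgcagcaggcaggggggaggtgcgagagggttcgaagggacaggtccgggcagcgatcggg
Adm: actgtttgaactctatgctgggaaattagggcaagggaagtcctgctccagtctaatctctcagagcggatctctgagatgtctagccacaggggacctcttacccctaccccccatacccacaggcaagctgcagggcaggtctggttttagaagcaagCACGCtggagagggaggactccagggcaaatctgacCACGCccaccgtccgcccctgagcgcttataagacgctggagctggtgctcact
P4ha1: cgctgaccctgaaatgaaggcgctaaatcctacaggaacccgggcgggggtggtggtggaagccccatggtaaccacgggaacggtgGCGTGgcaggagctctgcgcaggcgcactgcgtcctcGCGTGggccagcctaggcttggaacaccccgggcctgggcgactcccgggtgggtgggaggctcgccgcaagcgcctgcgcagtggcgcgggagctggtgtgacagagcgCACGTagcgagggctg
P4ha2: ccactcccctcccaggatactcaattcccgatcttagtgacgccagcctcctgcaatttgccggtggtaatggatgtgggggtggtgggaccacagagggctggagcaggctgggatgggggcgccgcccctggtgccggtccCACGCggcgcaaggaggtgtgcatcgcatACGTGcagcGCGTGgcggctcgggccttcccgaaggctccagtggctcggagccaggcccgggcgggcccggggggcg
Pgm1: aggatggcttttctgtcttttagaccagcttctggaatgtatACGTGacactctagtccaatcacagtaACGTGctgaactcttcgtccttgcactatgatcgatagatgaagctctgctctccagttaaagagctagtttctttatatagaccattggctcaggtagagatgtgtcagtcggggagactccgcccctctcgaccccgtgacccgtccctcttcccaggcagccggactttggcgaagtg
Rrm2: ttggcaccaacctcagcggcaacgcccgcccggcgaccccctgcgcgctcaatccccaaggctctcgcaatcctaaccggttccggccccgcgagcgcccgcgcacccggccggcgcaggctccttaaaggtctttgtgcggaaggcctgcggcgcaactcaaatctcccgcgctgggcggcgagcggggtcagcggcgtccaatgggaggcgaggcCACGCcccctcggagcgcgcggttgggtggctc
Of the 34 named genes that rose, 28 were in that table, and 23 of them (82.1%) held a core in at least 1 promoter. The share was 12 of 15 (80%) among genes that fell, 64.4% among the 3149 tested genes in the table and 41.5% among all 27025 genes of the table. A share per gene depends on how many promoters a gene has. Counted per promoter, a core was in 25 of 43 (58.1%) for genes that rose and 13 of 17 (76.5%) for genes that fell. It was in 57.7% for tested genes, so per promoter the genes that rose were close to those tested. The ACGTG form alone was in 50% of the genes that rose, 20% of those that fell and 27.2% of those tested. Per promoter it was in 34.9%, 17.6% and 23.2%. TNAAGTG, a sequence bound by factors of the Nkx2 family, was in 14.3% of the genes that rose (4 of 28), in none of the 15 that fell and in 9.65% of those tested. By promoter it was in 4 of 43 (9.3%) for genes that rose, 0 of 17 for genes that fell and 7.78% for genes tested. These matches are letters in a window, with no test and no binding measured.

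Across all genes 80 probe sets changed between homozygous mutant and heterozygous embryos, 1.15% of those tested. Higher in the mutants were 51 (0.735%) and lower were 29 (0.418%). They stand for 34 named genes that rose and 17 that fell, while 24 probe sets had no single gene symbol. Type a gave 46 and type b gave 34, which is 1.16% and 1.15% of the probe sets tested on each. The rises spanned 1.51-fold to 9.06-fold with a median of 2.5-fold, and 38 of the 51 were at least 2-fold. The falls ran from -0.76 to -2.45 on the log2 scale with a median of -1.11. In all 80 the mutant arrays did not overlap the heterozygous arrays, a pattern that 22.6% of all tested probe sets showed, 9.99% with the mutants above and 12.6% with them below. At an unadjusted p under 0.05 the counts were 500 higher and 590 lower, and the median log2 fold change of all tested probe sets was -0.07. The count of 80 rested on single replicates. It was 14 without heterozygous 3, 15 without heterozygous 4, 41 without heterozygous 8, 32 without homozygous mutant 2 and 47 without wild type 5, which enters through the shared estimate of spread. Of the 80 probe sets themselves, 14 also passed without heterozygous 3, 15 without heterozygous 4, 29 without homozygous mutant 2, 60 without homozygous mutant arrays 8a and 9b and 68 after quantile normalization. Where a named gene lost its call without arrays 8a and 9b or after quantile normalization, that adjusted p is given with the gene. Genes given without such a value could still lose the call in other settings, above all without heterozygous 3 or 4. Of 22 alternative settings Rpl36 passed in 9, and Ccng2 and Idh1 in 14 each. Apoe on type a passed in 13 and Ndrg2 in 15 of the 21 in which they were tested.

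**Figure D1:**
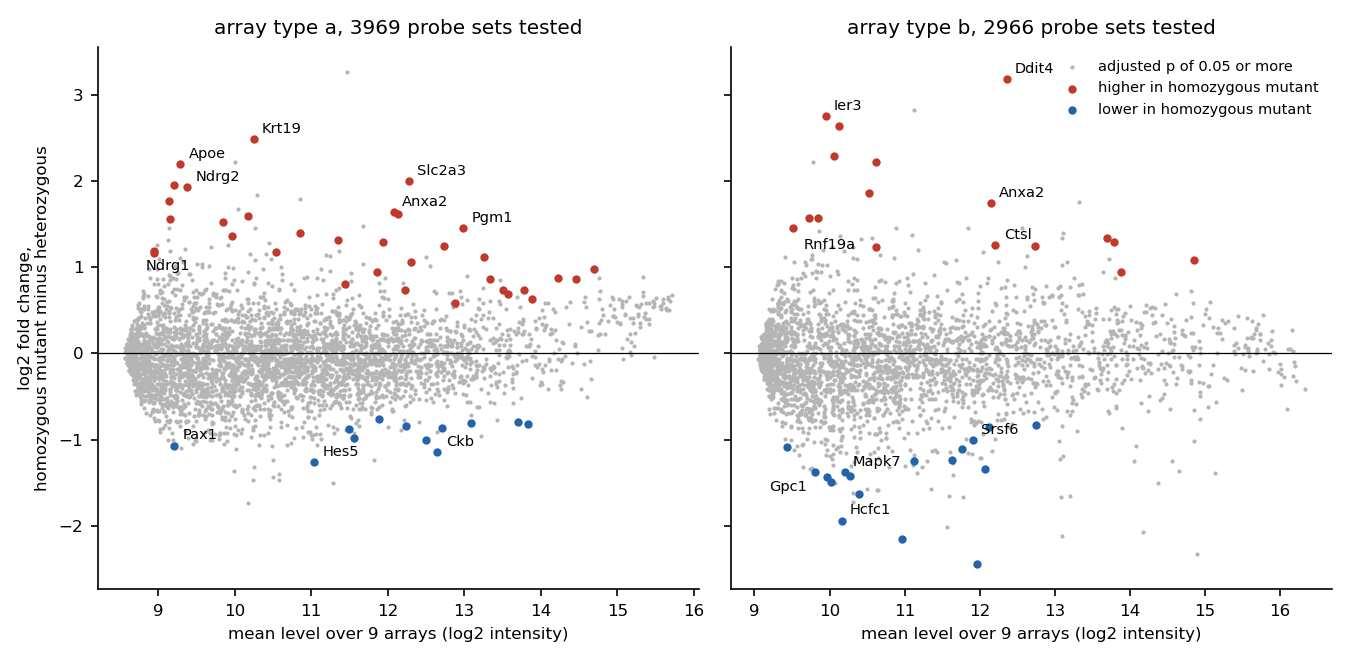
Log2 fold change of homozygous mutant minus heterozygous embryos (vertical axis) against the mean log2 intensity over 9 arrays (horizontal axis), 1 point per tested probe set, type a on the left and type b on the right. Red points are the 51 that rose and blue points the 29 that fell, with Ddit4 at 3.18 the highest of the named genes that rose and Hcfc1 at -1.94 the lowest of those that fell.

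The step from wild type to heterozygous passed the test nowhere. Heterozygous minus wild type gave 0 changes by limma (0%), with 118 probe sets at an unadjusted p under 0.05. Among the 51 probe sets that rose from heterozygous to homozygous embryos, the log2 difference between heterozygous and wild type ran from -1.34 to 0.16, with a median of -0.10. Among the 29 that fell it ran from -0.30 to 1.01, with a median of 0.17. Homozygous mutant minus wild type gave 48 changes (0.692%). It had a median of 1.19 over the same 51 and of -0.99 over the same 29. Both of those comparisons share arrays with the main one, so these values are set side by side as descriptions.

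The steps were also tested against each other, as the log2 change from heterozygous to homozygous minus that from wild type to heterozygous. Only Ddit4 passed (3.02, SE 0.362, limma adjusted p = 0.0296), 1 of 6935 probe sets or 0.0144%, while 546 had an unadjusted p under 0.05. Ddit4 no longer passed when wild type 1, wild type 5, wild type 7, heterozygous 3, heterozygous 4, homozygous mutant 2 or the pair 8a and 9b was left out, or with no filter on dim probe sets. In order of unadjusted p, the next genes above 0 were Pgm1 (1.59, adjusted p = 0.0583), Slc2a3 (1.93, adjusted p = 0.0583), Ier3 (2.75, adjusted p = 0.0792) and Anxa2 (2.13, adjusted p = 0.0792). Those below 0, in the same order, were Hcfc1 (-2.43, adjusted p = 0.110), Gpc1 (-2.0, adjusted p = 0.122), Snx17 (-1.56, adjusted p = 0.301), Rcc1 (-1.41, adjusted p = 0.315) and Bdkrb1 (-2.11, adjusted p = 0.320). The values of Ier3, Hcfc1 and Bdkrb1 rest on a genotype whose arrays were all under the floor. For all genes but Ddit4, therefore, unequal steps did not pass the test.

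**Figure D2:**
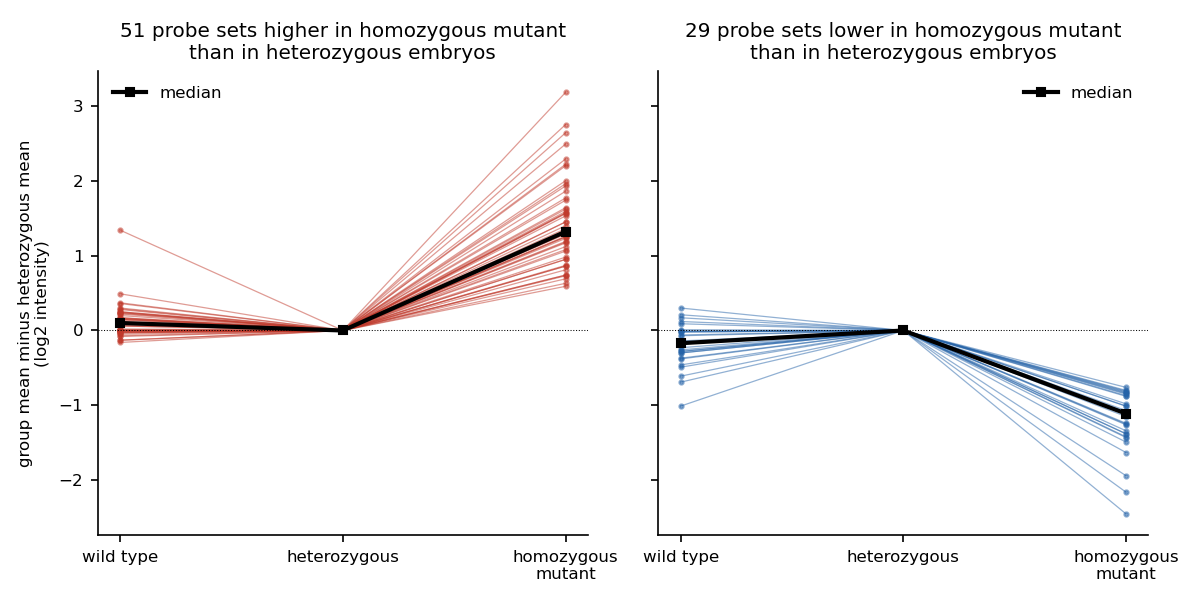
Genotype means relative to the heterozygous mean (vertical axis, log2 intensity) for the 51 probe sets that rose (left) and the 29 that fell (right), 1 thin line per probe set and the median in black. The medians are near 0 from wild type to heterozygous, at -0.10 and 0.17 for that step, while single probe sets run from -1.34 to 0.16 and from -0.30 to 1.01. From heterozygous to homozygous mutant the panels go opposite ways, as the choice of probe sets requires.

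Ddit4, a stress-induced inhibitor of the growth kinase complex mTORC1, rose most among the named genes that passed the test. Its intensity was 1937, 3020 and 3090 in heterozygous 3, 4 and 8, and 25899, 20958 and 24797 in homozygous mutants 2, 6 and 9b. Every mutant array was far above every heterozygous array, and wild type lay at 2618, 2208 and 2219, around the heterozygous level. The rise was 9.06-fold, from 2682 ± 646.5 (SD, n = 3) to 23885 ± 2593, or 3.18 on the log2 scale (SE 0.209, limma adjusted p = 6.28e-05).

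**Figure D3:**
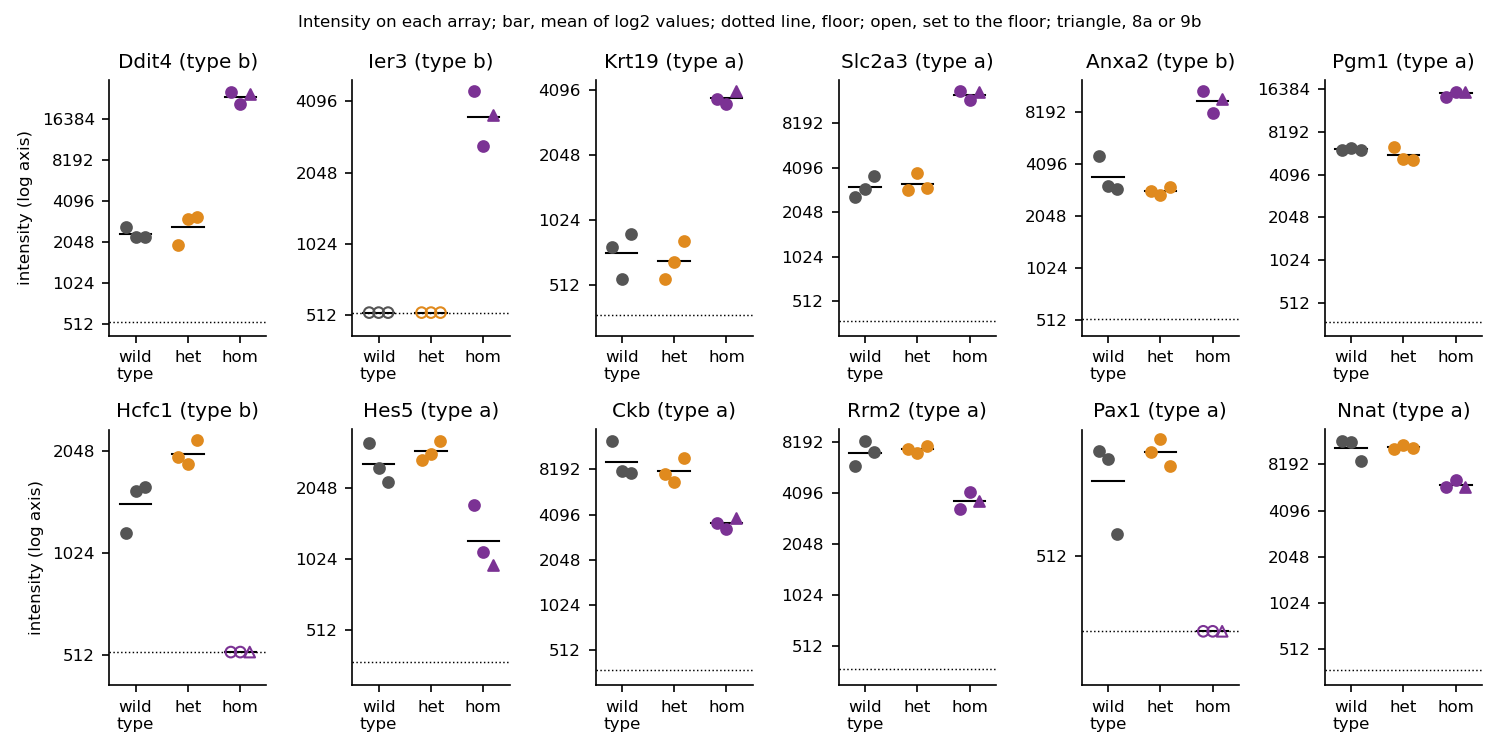
Intensity on each array (vertical axis, log scale) by genotype for 6 genes that rose (top) and 6 that fell (bottom); points are arrays, bars the means of log2 values, dotted lines the floor, open symbols values set to the floor and triangles arrays 8a or 9b. In each panel, as for all 80 changed probe sets, the homozygous mutant arrays lie outside the range of the heterozygous arrays. For Ddit4 they span 20958 to 25899 against 1937 to 3090.

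Targets of the hypoxia-inducible factors formed the list with the largest share of changed genes among the 30 lists. Of 11 tested members 7 rose and none fell, against 0.767% higher and 0.333% lower (1.1% in all) over all genes at 1 probe set per gene. The median log2 fold change was 1.19 beside -0.07 for all genes, and the members ran from 0.42 to 1.77. The 4 that did not pass were Vegfa (1.26, adjusted p = 0.0891), Mxi1 (0.93, adjusted p = 0.143), Bhlhe40 (0.51, adjusted p = 0.472) and Hmox1 (0.42, adjusted p = 0.511). Relative to heterozygotes the list's median was 1.33, 1.26 and 1.0 in mutant replicates 2, 6 and 8a with 9b. The heterozygous replicates had -0.05, 0.00 and 0.07 and the wild-type replicates 0.00, 0.06 and -0.04. This list, like the others below, was drawn up with earlier results of these data known, so its count is not independent evidence.

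The hypoxia targets that rose act in vessels, collagen and metabolism. Adm encodes adrenomedullin, a peptide that widens vessels and is needed for their development. It read 216.6, 339.3 and 279.2 in heterozygotes, all under the floor, and 1699, 1295 and 954.8 in the mutants, at least 3.41-fold higher (adjusted p = 0.00437). P4ha2 and P4ha1 encode the catalytic subunits of the enzyme that hydroxylates proline in collagen. P4ha2 read 688.6, 801.1 and 840.7 in heterozygotes and 2506, 2377 and 2112 in the mutants, a 3.0-fold rise (1.59 on the log2 scale, SE 0.229, adjusted p = 0.00765). P4ha1 read 1817, 1740 and 2344, then 5448, 5803 and 3665, a 2.5-fold rise (log2 fold change 1.32, SE 0.212, adjusted p = 0.0134). Both hydroxylase genes were lowest on array 8a among the mutants, and still above every heterozygote.

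Pdk1, which blocks the entry of pyruvate into the mitochondria's citrate cycle, read 1350, 1432 and 1346 in heterozygotes and 4149, 3830 and 3026 in the mutants (2.64-fold, adjusted p = 0.00917). Kdm3a, a histone demethylase that itself needs oxygen, read 1055, 1139 and 1079, then 2670, 2611 and 2185 (2.27-fold, adjusted p = 0.0236). Ndrg1, a gene long used as a marker of low oxygen, read -6.3, -9.0 and 198.7 in heterozygotes and 900.3, 851.4 and 820.6 in the mutants, at least 2.28-fold higher (adjusted p = 0.00583). Groups did not overlap for any of these, as for all 80 changed probe sets and, with the mutants above, for 9.99% of all tested. Ndrg2, a relative of Ndrg1 that was not in the list, read 71.0, 77.7 and 568.6 in heterozygotes and 1550, 1094 and 2606 in the mutants. With the values of heterozygous 3 and 4 raised to the floor it rose 3.81-fold (adjusted p = 0.0193). Higd1a, a small mitochondrial protein, read 6807, 6929 and 8886, then 14288, 12787 and 23486 (2.17-fold, adjusted p = 0.0433). Its adjusted p was 0.0586 without arrays 8a and 9b, and 0.0311 to 0.209 over all settings. Vegfa, the main growth factor of vessels, read 344.0, 140.3 and 404.2 in heterozygotes and 1120, 1426 and 486.7 in the mutants, where the low value was that of array 8a.

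Genes that bring glucose into the cell and break it down were next. Slc2a3, a high-affinity glucose transporter, read 2877, 3746 and 2981 in heterozygotes and 13382, 11688 and 13281 in the mutants. The groups were far apart, a 4.01-fold rise (log2 fold change 2.0, SE 0.165, limma adjusted p = 0.000226), and a dimmer probe set of the gene had 1.79 (adjusted p = 0.0563). Of the 13 tested members of the glucose and glycolysis list, Slc2a3 alone passed at its brightest probe set. The list median was 0.58 beside -0.07 for all genes. Aldoa, an aldolase of glycolysis, and Tpi1, which interconverts the triose phosphates that aldolase makes, rose at a dimmer probe set of type a. Tpi1 read 17943, 18698 and 18410, then 33781, 35430 and 31118 (1.82-fold, adjusted p = 0.0158), and Aldoa rose 1.83-fold (adjusted p = 0.0187). At their brightest probe sets, on type b, they had 0.58 (adjusted p = 0.239) and 0.34 (adjusted p = 0.645). After quantile normalization these type a rises had adjusted p of 0.0516 and 0.0503, with ranges of 0.00701 to 0.111 and 0.0128 to 0.121 over all settings.

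Other members of the glucose list did not pass. Hk2, the hexokinase that traps glucose in the cell, read 4873, 4490 and 5264 in heterozygotes and 13375, 12116 and 5627 in the mutants, so that homozygous mutants 2 and 6 stood far above the heterozygotes and array 9b just above (log2 fold change 1.0, SE 0.292, adjusted p = 0.131). The transporter Slc2a1 had the same shape, with 12039, 12236 and 7880 against 5702, 5691 and 8271, here with overlap (0.70, adjusted p = 0.127). Pfkl, a phosphofructokinase, had 0.85 (adjusted p = 0.0932), Pfkfb3, which makes its activator, 0.84 (adjusted p = 0.0912), Ldha 0.23 (adjusted p = 0.766) and Gapdh -0.10 (adjusted p = 0.922). The genes that follow, of glycogen and lactate handling, were outside the list. Pgm1, a phosphoglucomutase that links glucose phosphate to glycogen, read 6412, 5262 and 5240, then 14481, 15764 and 15828, a 2.73-fold rise with little spread (log2 fold change 1.45, SE 0.131, adjusted p = 0.000425). Gyg, glycogenin, the protein primer of glycogen, rose 1.67-fold from 9249 ± 1059 to 15481 ± 1715 (adjusted p = 0.0343). Of other glycogen genes, picked after values were seen, the branching enzyme Gbe1 had 1.15 (adjusted p = 0.0812), Pygm 0.07 (adjusted p = 0.919) and Gys1 -0.04 (adjusted p = 0.983). Bsg, the chaperone of lactate transporters, rose 1.66-fold (adjusted p = 0.0486). It had 0.0644 after quantile normalization, with 0.0152 to 0.211 over all settings, and passed in 7 of 22. Without arrays 8a and 9b the adjusted p of Gyg was 0.0532 (0.0268 to 0.208 over all settings).

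The stress list holds genes of the amino acid and endoplasmic reticulum responses. Of 18 tested members 4 rose and none fell, against 0.767% higher and 0.333% lower over all genes at 1 probe set per gene. The median was 0.52 beside -0.07 for all genes. The members that rose were Ddit4, Vldlr, Upp1 and Asns. Which signal raised them was not tested. Asns, asparagine synthetase and a textbook target of Atf4, read 2880, 3185 and 2757 in heterozygotes and 9124, 5354 and 7642 in the mutants (2.45-fold, SE 0.198 on the log2 scale, adjusted p = 0.0101). Upp1, a uridine phosphorylase, was under the floor in heterozygotes (362.7, 272.4 and 291.3) and read 1131, 1028 and 1171 in the mutants, at least 2.95-fold higher (adjusted p = 0.00765). Vldlr, a lipoprotein receptor, was also under the floor (181.6, 237.1 and 348.6) and read 1470, 1283 and 1661, at least 3.9-fold higher (adjusted p = 0.000703). The mutant values of both were close together and clear of the floor.

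Hspa5, the main chaperone of the endoplasmic reticulum, had -0.05 (adjusted p = 0.931), and Xbp1, a transcription factor of the unfolded protein response, had -0.31 (adjusted p = 0.640). Atf4 itself read 10889, 10492 and 11223, then 16864, 15157 and 14434, without overlap (0.51, SE 0.150, adjusted p = 0.131). Of all tested probe sets 9.99% had the mutants above without overlap. Trib3, also a target of Atf4, had 0.19 (adjusted p = 0.633). Ccng2, an atypical cyclin that restrains the cell cycle, rose 2.88-fold from 595.0 ± 13.5 to 1790 ± 587.4 (adjusted p = 0.0319), with array 8a lowest of the mutants at 1116. Eif4b, a translation initiation factor, rose 1.55-fold and 1.51-fold at its 2 probe sets (adjusted p = 0.0486 and 0.0488). The first had 0.0873 after quantile normalization, and they passed in 8 and 7 of 22 settings, with 0.0128 to 0.211 and 0.0332 to 0.211 over all of them.

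Ier3, an early response gene that modulates survival, was the largest rise from below the floor among the named genes that passed the test. It read -147.7, -55.5 and -32.2 in heterozygotes and 4529, 2665 and 3591 in the mutants, at least 6.72-fold higher (log2 fold change 2.75, adjusted p = 0.000560). Wild type lay under the floor too, at 452.2, 85.3 and 45.2. The other 12 tested immediate early genes did not pass, with Ccn2 at 1.06 (adjusted p = 0.0900), Egr1 at -0.04 (adjusted p = 0.939) and Nr4a1 at -0.85 (adjusted p = 0.450), and a list median of 0.25.

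Single genes of epithelium, membrane and lipid transport also rose. Krt19, a keratin of simple epithelia, read 548.6, 657.9 and 820.7 in heterozygotes and 3722, 3524 and 4044 in the mutants, with each group tight and far from the other (5.64-fold, log2 fold change 2.49, SE 0.263, limma adjusted p = 0.000970). The other 11 epithelial genes tested did not pass. Krt18 had 1.14 (adjusted p = 0.0891), Dsp 1.13 (adjusted p = 0.157), Krt8 0.56 (adjusted p = 0.386) and Cdh1, the epithelial cadherin, 0.22 (adjusted p = 0.734). Anxa2, a membrane-binding annexin, rose on both array types, 3.33-fold on type b and 3.13-fold on type a (adjusted p = 0.00345 for each). On type b it read 2861, 2727 and 3008, then 10824, 8146 and 9825. The other 9 annexin and S100 genes tested did not pass, among them its partner S100a10 (0.49, adjusted p = 0.361).

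Apoe, the apolipoprotein that Vldlr binds, read -2281, -1008 and -111.5 in heterozygotes and 967.6, 1360 and 3904 in the mutants, at least 4.6-fold higher (adjusted p = 0.0272). In size, -2281 and -1008 were larger than the floor of 375.1, so this bound is uncertain. Array 8a held the high value, while on type b the heterozygotes were again all under the floor and the mutants were at least 4.67-fold higher (adjusted p = 0.0813), with array 9b at 4518 and homozygous mutant 6 at 744.4. Ctsl, a lysosomal cathepsin, rose at both probe sets of type b (2.39-fold and 2.37-fold, adjusted p = 0.0187 and 0.00580), and the lysosomal membrane protein Cd63 rose 1.67-fold (adjusted p = 0.0335, with 0.0674 without arrays 8a and 9b and 0.0295 to 0.165 over all settings). They were 2 of 14 tested lysosomal genes, with none lower, against 0.767% higher over all genes at 1 probe set per gene. The list median was 0.41 beside -0.07 for all genes. Rnf19a, a ubiquitin ligase, rose on both types (at least 2.73-fold on type b, adjusted p = 0.00378, and 2.57-fold on type a, adjusted p = 0.0488). The type a rise had 0.0869 without arrays 8a and 9b, with 0.0101 to 0.192 over all settings, and passed in 9 of 22. Igfbp2, which binds insulin-like growth factors, read 2695, 2807 and 3541, then 6077, 5700 and 5577 (1.93-fold, adjusted p = 0.0187). It was the only 1 of 41 tested matrix and mesenchyme genes to pass, beside 0.767% higher over all genes at 1 probe set per gene. The basement membrane gene Nid2 had 1.24 (adjusted p = 0.0563) and Postn 1.42 (adjusted p = 0.158), beside a list median of 0.31.

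The remaining named genes that rose were Clcn3 (1.23, adjusted p = 0.0456), a chloride transporter of endosomes, Ccdc130, Nipsnap2 (1.06, adjusted p = 0.0335), Syce2 (0.81, adjusted p = 0.0389), a protein of meiotic chromosomes, and the ribosomal protein genes Rpl36 and Rpl13a. Ccdc130 read -594.7, -650.1 and 144.5 in heterozygotes, all under the floor, and was at least 2.25-fold higher in the mutants (adjusted p = 0.00862). As for Apoe, negative readings larger in size than the floor make this bound uncertain. Without arrays 8a and 9b the adjusted p was 0.0722 for Clcn3, 0.0833 for Nipsnap2 and 0.0814 for Syce2, and over all settings it ran from 0.0131 to 0.211, 0.0263 to 0.173 and 0.0342 to 0.198. Rpl36 read 20613, 19933 and 20039 in heterozygotes and 34308, 33233 and 55464 in the mutants (1.97-fold, adjusted p = 0.0468). The log2 fold change was 0.52 at a brighter probe set of the gene (adjusted p = 0.389). Rpl13a rose 1.82-fold (adjusted p = 0.0343) and had an adjusted p of 0.0561 without arrays 8a and 9b (0.0263 to 0.138 over all settings). Over the 38 tested genes of the cytosolic ribosome the median was 0.43, and it was 0.24, 0.29 and 0.82 in mutant replicates 2, 6 and 8a with 9b. The 59 brightest probe sets of type a, at a mean log2 level of 15 or more, moved likewise by 0.23, 0.29 and 0.94. After quantile normalization their median log2 fold change was 0.01 against 0.52, and that of the ribosomal list 0.11. The part of this shift of bright probe sets in the ribosomal and glycolytic values was not tested beyond these values.

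Genes that fell were fewer and more mixed. Hcfc1, a chromatin cofactor of cell cycle genes, fell furthest among the named genes that passed the test. It went from 1964, 1867 and 2199 in heterozygotes to 358.5, 506.7 and 449.1 in the mutants, all under the floor. It was at least 3.83-fold lower (log2 fold change -1.94, SE 0.249, limma adjusted p = 0.00465), with wild type between the groups at 1169, 1558 and 1600. Other nuclear and signalling genes fell on type b. Cenpb, which binds centromere repeats, had 1504 ± 339.5 and 382.6 ± 195.7 (log2 fold change -1.43 with 2 mutant arrays raised to the floor, adjusted p = 0.0433), and Rcc1, the nucleotide exchange factor of Ran, had 4853 ± 158.4 and 2280 ± 475.1 (-1.11, adjusted p = 0.0268). Mapk7, a kinase needed for vessel integrity, read 1927, 1975 and 1327, then 801.8, 508.7 and 678.0 (-1.38, adjusted p = 0.0486). Tcf3, an E protein, read 4470, 5022 and 3769, then 1974, 2275 and 1436 (-1.24, adjusted p = 0.0335). Without arrays 8a and 9b the adjusted p was 0.0841 for Cenpb, 0.0767 for Mapk7 and 0.0602 for Tcf3, and after quantile normalization it was 0.0574, 0.0782 and 0.0540. They passed in 9, 6 and 11 of 22 settings, with ranges of 0.0345 to 0.248, 0.0298 to 0.211 and 0.0309 to 0.203. Gpc1, a heparan sulfate proteoglycan, fell by 1.38 at a dim probe set (adjusted p = 0.0129) but had -0.18 at its brighter one (adjusted p = 0.812). The splicing factor gene Srsf6 fell by 1.01 (adjusted p = 0.0244) and had -0.63 at its other probe set (adjusted p = 0.0654).

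Cell division genes gave 1 change among many small values. Rrm2, a subunit of ribonucleotide reductase, read 7443, 7080 and 7849 in heterozygotes and 3295, 4179 and 3710 in the mutants (2.01-fold lower, adjusted p = 0.0119), with the groups well apart. Values at the gene's other probe sets were -0.58 (adjusted p = 0.135) at the brightest, then -0.69 (0.331) and -1.19 (0.127). At the brightest probe set none of 52 tested cell cycle genes passed (10 at an unadjusted p under 0.05), 39 were negative, and the median was -0.17. Over all 3909 genes 2226 were negative and 626 had an unadjusted p under 0.05. Cdc6 (-1.11, adjusted p = 0.0689) and Fen1 (-0.99, adjusted p = 0.0563), both of DNA replication, were lowest, while the mitotic genes Mki67 (0.21, adjusted p = 0.675) and Top2a (0.13, adjusted p = 0.828) were above 0. Cdk2ap1, an inhibitor of Cdk2, fell by 0.80 and 0.82 at its 2 probe sets (adjusted p = 0.0319 and 0.0358), the second with 0.0529 without arrays 8a and 9b (0.0116 to 0.203 over all settings). Cdkn1c, an imprinted inhibitor of the same kinases, fell by 0.84 (adjusted p = 0.0486), against -0.46 at a brighter probe set (adjusted p = 0.418). Its call was lost without arrays 8a and 9b (adjusted p = 0.0929) and held in 7 of 22 settings, with 0.0208 to 0.211 over all of them.

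Genes of the nervous system had negative values for 21 of 24 tested members, beside 2226 of 3909 over all genes. Of the 24, 1 passed as lower, beside 0.333% of all genes at 1 probe set per gene. Hes5, a Notch target of neural progenitors, read 2702, 2877 and 3271 in heterozygotes and 1744, 1100 and 973.6 in the mutants (-1.26 on the log2 scale, SE 0.245, adjusted p = 0.0335). Without arrays 8a and 9b its adjusted p was 0.0758 (0.0232 to 0.162 over all settings). The list's median was -0.50, and its level against heterozygotes was -0.31, -0.44 and -0.77 in mutant replicates 2, 6 and 8a with 9b. The neuronal tubulin Tubb3 read 1583, 1846 and 2396, then 918.3, 542.9 and 243.8 (-1.58, adjusted p = 0.0912). Fabp7, of radial glia, read 2198, 1749 and 2317, then 1191, 798.8 and 472.6 (-1.44, adjusted p = 0.0563). Ina, a neuronal filament, had -1.01 (adjusted p = 0.0558), while Cdh2 had 0.18 and Sox2 -0.46. Groups did not overlap for Tubb3, Fabp7 or Ina, a pattern that 12.6% of all tested probe sets showed with the mutants below. Of 7 fixed neural tube markers 3 were probed on each type, and 3 and 1 of them exceeded the floor on 3 or more arrays. Their summed intensity was 2736 to 4680 in the mutants against 5821 to 9853 in heterozygotes on type a, and 650.1 to 1336 against 1960 to 2925 on type b. The marker Nes overlapped between the groups on type a (1107, 1194 and 4265, then 1744, 837 and 1334). On type b Tubb3 was the 1 marker above the floor on 3 or more arrays. In this mixed tissue, a smaller share of neural tissue in the part taken and less RNA per neural cell cannot be told apart.

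Ckb, the brain creatine kinase, fell too. It read 7666, 6782 and 9750 in heterozygotes and 3595, 3302 and 3882 in the mutants (2.22-fold lower, adjusted p = 0.0236), while the value was -0.84 at a brighter probe set (adjusted p = 0.239). Nnat, an imprinted gene of brain and pancreas, fell from 10564 ± 352.8 to 6041 ± 335.1 (log2 fold change -0.81, SE 0.146, adjusted p = 0.0244). It alone passed among 13 tested imprinted genes at the brightest probe set, beside 0.333% lower over all genes. Igf2 had 0.23 (adjusted p = 0.563) and H19 0.12 (adjusted p = 0.870) there. Pax1, which patterns the sclerotome and pharyngeal pouches, read 789.5, 833.6 and 744.9, then 106.5, 258.9 and 360.0, all under the floor, and was at least 2.1-fold lower (adjusted p = 0.0335, with 0.0683 without arrays 8a and 9b and 0.0226 to 0.760 over all settings). The other 7 somite genes tested did not pass.

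Metabolic genes that fell were Idi1, Idh1 and Mrpl20. Idi1, of the isoprenoid steps of cholesterol synthesis, read 3892, 3633 and 3782, then 1911, 2477 and 1483 (1.97-fold lower, adjusted p = 0.0488, with 0.0884 without arrays 8a and 9b and 0.0383 to 0.198 over all settings). The 5 other cholesterol genes tested did not pass and none was positive, with Fdft1 at -0.60 (adjusted p = 0.0741), Sqle at -0.67 (adjusted p = 0.313) and Ebp at 0.00, and a list median of -0.61. Idh1, the cytosolic isocitrate dehydrogenase, read 4466, 4476 and 4360, then 2249, 2914 and 2753 (1.69-fold lower, adjusted p = 0.0319). Mrpl20, a protein of mitochondrial ribosomes, went from 3829, 3714 and 2828 to 1676, 1926 and 2004 (1.84-fold lower, adjusted p = 0.0324, with 0.0517 after quantile normalization and 0.0281 to 0.203 over all settings). Of 49 tested genes of the respiratory chain none passed, with a median of 0.23 that was 0.07, 0.10 and 0.54 in mutant replicates 2, 6 and 8a with 9b.

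Heart genes, the tissue in which Nkx2-5 acts, did not pass the test. None of 12 sarcomere genes, 11 calcium and conduction genes, 8 cardiac transcription factors or 8 reported Nkx2-5 targets changed, with list medians of 0.16, -0.15, -0.10 and 0.06. At an unadjusted p under 0.05 these lists held 1, 0, 2 and 3 genes. Over all 3909 genes 1.1% passed at 1 probe set per gene and 626 had an unadjusted p under 0.05. Lists this small can therefore hold no call without differing from all genes. The sarcomere list moved unevenly, with -0.31, 0.11 and 1.13 in mutant replicates 2, 6 and 8a with 9b. Myl2, the ventricular myosin light chain, read 9597, 6558 and 9809 in heterozygotes and 2169, 7483 and 22957 in the mutants. The mutant values lay below, within and above the heterozygous range (-0.24, SE 0.624, adjusted p = 0.882). Myl3, another light chain, read 5859, 4548 and 6725, then 10732, 10695 and 28777, without overlap (1.40, SE 0.334, adjusted p = 0.0704). That pattern, with the mutants above, was found at 9.99% of all tested probe sets. Actc1, cardiac actin, had 57167 ± 6045 and 61323 ± 14420 (0.08, adjusted p = 0.916).

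Among the transcription factors Hand2, needed for the right ventricle, read 1418, 1489 and 1627 in heterozygotes and 812.5, 314.9 and 551.6 in the mutants. All mutants were lower, as at 12.6% of all tested probe sets, and wild type lay at 1138, 1691 and 1101. The difference did not pass over all genes (-1.29, SE 0.283, adjusted p = 0.0563). Gata6, a zinc finger factor of heart and gut, read 1510, 1866 and 2390, then 4025, 3809 and 3236 (0.96, SE 0.256, adjusted p = 0.1). Gata4 had -0.20 (adjusted p = 0.764) and Hand1 -0.01 (adjusted p = 0.993). Of the reported targets, Nppb, the B-type natriuretic peptide, read 1235, 821.1 and 1184, then 453.7, 770.4 and 831.8 with overlap (-0.68, SE 0.300, adjusted p = 0.300). Msx2 had 0.86 (adjusted p = 0.116), Smyd1, a muscle methyltransferase, -0.67 (adjusted p = 0.179) and Gja5 -0.22 (adjusted p = 0.566).

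**Figure D4:**
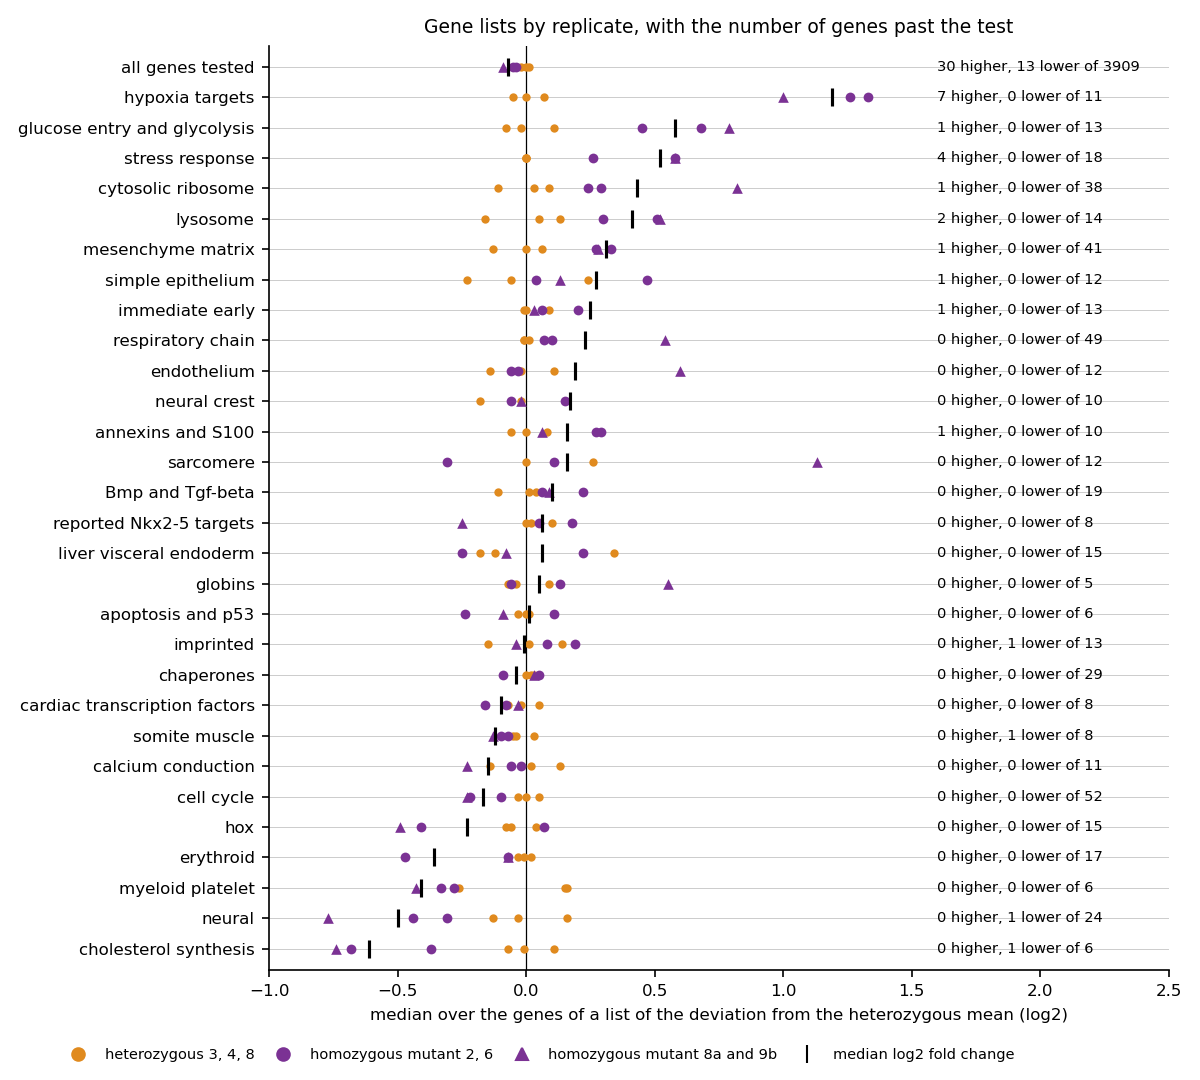
Median deviation from the heterozygous mean (horizontal axis, log2) over the genes of each list, for heterozygous replicates (orange), homozygous mutants 2 and 6 (purple circles) and the pair 8a and 9b (purple triangles), with the median log2 fold change of the fit as a black bar and the numbers that passed at right. The hypoxia list lies at 1.0 to 1.33 in every mutant replicate, while the sarcomere list spans -0.31 to 1.13.

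Blood and vessel genes did not pass either. None of 5 globins, 17 other erythroid genes or 12 endothelial genes passed, with medians of 0.05, -0.36 and 0.19 and with 1, 2 and 1 genes at an unadjusted p under 0.05. Among all 3909 genes 626 had such a p and 1.1% passed, so the lists of this paragraph can hold no call without differing from all genes. The embryonic globin Hba-x had 46587 ± 2254 in heterozygotes and 45760 ± 8623 in the mutants, and Kdr, the receptor of Vegfa, had 1982 ± 740.2 and 2301 ± 668.7 (0.24, adjusted p = 0.774). None passed among 10 neural crest genes, 15 Hox genes, 19 genes of the Bmp and Tgf-beta pathways, 29 chaperones, 6 of apoptosis and p53, 6 of myeloid cells and platelets and 3 of trophoblast and decidua. The 15 tested genes of liver and visceral endoderm did not pass at their brightest probe sets, and Apoe, described above, was 1 of them. The median of the chaperone list was -0.04, of the neural crest list 0.17 and of the myeloid list -0.41.

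The arrays themselves differed in ways that bear on these values. Homozygous mutant arrays 8a and 9b had a ratio of 3' to 5' actin signal of 2.5 and 2.28, a sign of shortened RNA, against 0.849 to 1.41 on all other arrays. The signal of the control BioB was also raised in both. It read 3950 in 8a, while the rest of type a spanned 965.6 to 1539. In 9b it read 4531, while the rest of type b spanned 1498 to 2320. What raised this control signal was not tested. Of the 51 probe sets that rose, array 8a or 9b was farther from the heterozygotes than both other mutants in 22 and nearer than both in 19. Of the 29 that fell these numbers were 8 and 5. Without those arrays the count of changes was 88. Heart muscle markers summed to 108046 on array 8a and 147641 on array 9b, the highest of each type. The erythroid sums (115976 and 207607) and the endothelial sums (2891 and 7049) were also the highest of each type there. The neural tube, liver bud and macrophage sums were not. No probed marker of placenta and decidua exceeded the floor on 3 or more arrays, and the liver bud sum was high in 1 replicate of each genotype, namely wild type 1, heterozygous 4 and homozygous mutant 2. With a block for these replicates the count was 71, with 46 higher and 25 lower, and 66 of the 80 passed. Heterozygous 8 of type b lacked 499 values, which touched 83 tested probe sets and none of the 80. Beyond these counts the part of such differences in the results was not tested.

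Probe sets of the same gene on both array types allow a check within these samples. Over 205 genes tested on both types, the log2 fold changes had a Pearson r of 0.563 and a Spearman rho of 0.5, across genes, which are not independent replicates, and from arrays that may share their RNA. Anxa2 passed on both types, in every one of 22 settings, and Rnf19a on both types in the reported fit, with its type a call in 9 of 22 settings. Of the 24 changed probe sets with no single symbol, 13 rose and 11 fell, and the lowest of all, an unnamed probe set of type b, went from a mean of 7784 to 1654 (-2.45, adjusted p = 0.0456, with 0.0788 without arrays 8a and 9b, 0.0574 after quantile normalization and 0.0169 to 0.239 over all settings).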

How the data were processed

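The samples were 18 arrays of 2 types, 3 per genotype and type, of which the 12 homozygous mutant and heterozygous arrays are compared. The deposited intensity per probe set was used as the authors scaled it. The sources used here do not give the array software or its background correction. Linear scale and background subtraction were read from the values, many of which are negative. Control probe sets, 61 on each type, were left out, and 13057 remained. Gene symbols are those of the platform annotation, brought up to date by gene identifier with RefSeq (GRCm38.p6), and only probe sets with 1 symbol are named.

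The floor was 2 times the noise SD, estimated per type from the median size of negative values. limma 3.58.1 in R 4.3.3 (lmFit, eBayes with an intensity trend, two-sided) was fitted per type on all 9 arrays, so that 3 genotypes share the spread, with Benjamini-Hochberg adjustment over both types. The number of arrays limits the precision. Named genes were the 15 largest changes each way and 5 each way for the difference of steps. The other changed genes are named because they passed, and list members as the called, extreme or brightest ones or after their values were seen. The members, the 30 gene lists and the tests were chosen with earlier results of these data known. Lists are described by counts and medians at the brightest probe set of a gene, with no test. At 1 probe set per gene 1.1% of all genes passed, the share to set beside the count of each list. Alternatives were the floor, the filter, normalization, scaling, the log offset, the arrays fitted, the trend, robust fitting, the adjustment, a block for high or low Afp, complete probe sets and leaving out each replicate.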

Additional observations from a re-analysis of the deposited data

How the results depend on the processing

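Over 22 settings none of the 80 changes between homozygous mutant and heterozygous embryos changed sign. In every setting in which they were tested 11 of them passed, 10 higher and 1 lower: Ddit4, Krt19, Slc2a3, Anxa2 on both types, Pgm1, 1 of the probe sets of Ctsl, Ier3, Vldlr, a probe set with several symbols and Hcfc1, the lower one. The count of 80 was 45 with no filter on dim probe sets and 40 with only the homozygous mutant and heterozygous arrays in the fit, 31 higher and 9 lower. It was 14 to 86 when a replicate was left out and 88 without arrays 8a and 9b. Scaling to the 75th percentile gave 85, with 63 higher and 22 lower, a share higher of 74.1% against 63.8%, and without heterozygous 3 or 4 that share was 92.9% or 93.3%. The count for the difference between the allele steps, 1 in the report, was 4 with a floor of double height, 5 with no filter on dim probe sets, 3 with signal above the floor on at least 6 arrays, 3 with scaling to the 75th percentile, 5 with a started log, 3 with no intensity trend, and 0 to 3 with a replicate left out. The count for homozygous mutant minus wild type, 48, was 19 with no filter and 14 to 46 with a replicate left out (55 without arrays 8a and 9b), and that for heterozygous minus wild type, 0, was 0 to 1. For single named genes 490 of 653 values stayed on their side of the threshold and 163 lost the call. For list medians 61 of 660 moved by more than the spread between replicates. Where a count moved, the cause was not tested. No paired analysis was possible because the groups compared share fewer than 2 replicate numbers.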
